A study of Mus musculus with 18 samples.

Results

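The RNA-binding proteins LIN28A and LIN28B and genes known as targets of the let-7 microRNAs were described in the developing mouse heart. The 8 genes are Lin28a, Lin28b, Trim71, Arid3b, Hmga2, Igf2bp1, Igf2bp2 and Igf2bp3, found by symbol among 49315 gene identifiers, and all 8 were among the 18885 genes with enough reads to test. They were chosen because earlier results of these data showed them lower at later stages, so their levels over time are given as a description, without a test. Total RNA came from hearts of wild-type C57BL/6 embryos, male and female pooled, collected at embryonic day 9.5 (E9.5; 3 libraries) and at E10.5 (4 libraries), E12.5 (4), E14.5 (3) and E16.5 (4). No group carried an allele or received an agent, so the stages differ in embryonic age. The samples are the transcript arm of a study that followed proteins over heart development. The labels do not tell separate litters or embryo pools apart, and p-values here cover only the spread among these 18 libraries, which may be technical.

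The let-7 microRNAs pair through their seed, a short run near the 5′ end, with matching sites in the 3′ untranslated region (3′ UTR) of messenger RNAs, and lower their translation and stability. LIN28A and LIN28B bind let-7 precursors and block their processing, and let-7 in turn represses both LIN28 genes, so the pair forms a loop of mutual repression. Early embryonic tissues are rich in LIN28 and in let-7 targets such as HMGA2 and the IGF2BP proteins, and these genes are called oncofetal because many tumours express them again.

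Each library held 30744015 to 45646538 gene counts, and levels are given as CPM, counts scaled to a common library size. A gene with 3 counts stood at 0.0657 to 0.0976 CPM, taken here as the floor, which covers counting error only. In 5 libraries, E9.5 replicates 2 and 3, E10.5 replicates 1 and 2 and E12.5 replicate 4, transcripts of 8 activated macrophage-type genes (Chil3, Mmp12 and others) summed to 0.582 to 2.75 CPM, against 341 to 689 CPM in the other 13. These 5 libraries stand apart and are called the libraries low in macrophage-type transcripts below. The name refers to those 8 genes only. General macrophage markers (Adgre1, Csf1r and others) summed to 5.87 and 5.88 CPM in the low E9.5 libraries, against 28.1 in replicate 1. At E10.5 the low libraries held 9.92 and 10.6 CPM, against 31.6 and 42.7 in the others. E12.5 replicate 4 held 77 CPM, within the 72.8 to 96.4 CPM of its stage. Cardiomyocyte markers, 10 genes including Tnnt2 and Actn2, summed to 20700 to 23300 CPM at E9.5 and to 28100 to 32700 CPM at E16.5, with none at 0; of the 10, 6 rose and 3 (Myh6, Ttn and Myl4) fell over that span. In whole hearts, fewer cells expressing a gene and less RNA of that gene per cell cannot be told apart.

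The let-7 sequences and the member sites are shown first because the genes are grouped by this microRNA family. From RefSeq (GRCm38.p6), mature sequences of 11 members were matched, and 10 share the seed at bases 2 to 8, in capitals here, while let-7j differs in its last seed base. The microRNAs themselves were not measured.
mmu-let-7a-5p: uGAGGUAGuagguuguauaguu
mmu-let-7g-5p: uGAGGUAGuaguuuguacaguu
mmu-miR-98-5p: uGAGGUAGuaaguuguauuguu
mmu-let-7j: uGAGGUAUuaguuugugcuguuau

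An 8-letter site was defined as CTACCTCA, which pairs with bases 2 to 8 of let-7a and ends in A, and a 7-letter site as CTACCTC or TACCTCA outside an 8-letter site, on the transcript strand. Each of the 8 genes held at least 1 8-letter site in an annotated 3′ UTR (GENCODE M21, GRCm38), a property shared by 4.79% of the 15368 other tested genes with a 3′ UTR. Trim71 held 4 and Igf2bp1 held 3, and at least 4 or at least 3 were found in 0.0195% and 0.039% of the other genes. Lin28a held 2, as did 0.234% of other genes when counted as at least 2. Hmga2 held 1 8-letter and 6 7-letter sites, Arid3b 1 and 5, and Lin28b 1 and 4. Igf2bp3 had a single 8-letter site and no 7-letter site. The 30 bases that end at the site are printed below 5′ to 3′ for 1 site in each gene, with a second pair from Trim71, whose sites at bases 3591 and 3617 after the stop codon lie close together. Capitals mark the site, and all lie on the minus strand of GRCm38.
Lin28a, chr4:134005189-134005218: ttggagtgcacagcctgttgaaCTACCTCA
Lin28b, chr10:45381022-45381051: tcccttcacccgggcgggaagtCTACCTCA
Trim71, chr9:114512472-114512501: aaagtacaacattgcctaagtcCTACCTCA
Trim71, chr9:114509047-114509076: gattttgtttagtatggattttCTACCTCA
Trim71, chr9:114509021-114509050: ctcaattttggcaaaaagttgtCTACCTCA
Arid3b, chr9:57792564-57792593: agctctcactgctcaccaagtcCTACCTCA
Hmga2, chr10:120364224-120364253: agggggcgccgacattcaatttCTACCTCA
Igf2bp1, chr11:95961778-95961807: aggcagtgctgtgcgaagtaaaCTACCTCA
Igf2bp2, chr16:22059473-22059502: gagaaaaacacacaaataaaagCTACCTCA
Igf2bp3, chr6:49086787-49086816: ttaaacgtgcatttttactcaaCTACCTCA

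The sites differed in place. In Lin28b and Hmga2 the 8-letter site began 36 and 58 bases after the stop codon, and Trim71 had its first at base 166. The Arid3b site lay in a shorter alternative 3′ UTR of 1231 bases and not in its longest, of 2160 bases, which carried the 5 7-letter sites. The opposite-strand string TGAGGTAG, of equal length, was in none of the 8 genes and in 3.42% of the other genes. At such a share, none among 8 genes is the likely outcome, so nothing is read from it. The 8 genes were grouped as LIN28 genes and known let-7 targets. Their 3′ UTRs, of 1784 to 6337 bases, were all longer than the median of 1486 bases over the other genes. A match is a string in the annotation and does not show binding.

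**Figure D1:**
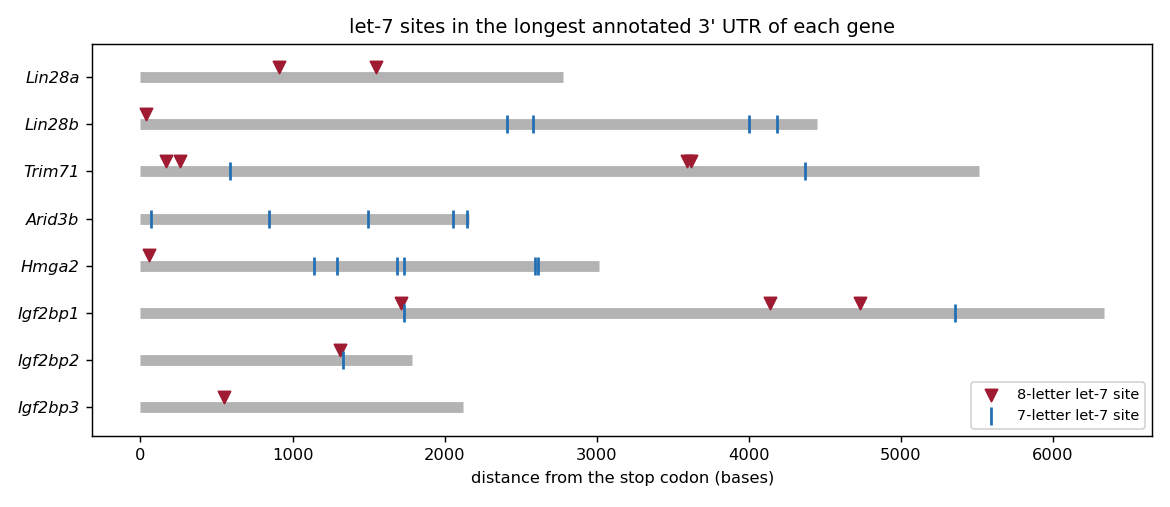
Position of let-7 sites along the longest annotated 3′ UTR of each gene, in bases after the stop codon (grey bars, UTR; triangles, 8-letter sites; ticks, 7-letter sites). Trim71 has 4 triangles, Hmga2 has 6 ticks beside 1 triangle near the stop codon, and Arid3b has 5 ticks and no triangle because its 8-letter site lies in another UTR.

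Among the other tested genes, those with let-7 sites were called lower at E16.5 than at E9.5 more often than they were called higher. Of 736 genes with at least 1 8-letter site, 44.4% were lower and 28.5% higher (edgeR, adjusted p under 0.05), beside 35.2% and 35.1% of all 15368 genes with a 3′ UTR. Their median log2 difference was -0.15, against 0.02 over all. Genes with the opposite-strand string, 525 in all, had 39.4% lower and 34.7% higher with a median of -0.02. Median UTR length was 3088.5 bases with a site, 3233 bases with the opposite string and 1486 bases over all, so site-bearing genes also had long UTRs. Without the 5 libraries low in macrophage-type transcripts, 32.7% of the site-bearing genes were lower and 27.7% higher, with a median of -0.03. With the opposite string 28.6% were lower and 32.6% higher (median 0.03), and of all genes with a UTR 27.5% were lower and 30.7% higher (median 0.05). That fit leaves 1 E9.5 library, taken to vary like the others.

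By step, the shares were read beside those of all genes with a 3′ UTR. From E9.5 to E10.5, 8.42% of site-bearing genes were lower, beside 8.81% of all. The share was 28% beside 20.6% from E10.5 to E12.5, where genes with the opposite string reached 28.2%. From E12.5 to E14.5 it was 16% beside 10%, and from E14.5 to E16.5 16.6% beside 9.73%, with the opposite string at 11% in both. These shares describe the gene classes, and no test between classes was made. The genes with most 8-letter sites outside the 8 did not share a direction. Mcf2l, a guanine nucleotide exchange factor with 7 sites, rose from 13.3 to 34.6 CPM (log2 difference 1.38 ± 0.0851 SE, adjusted p = 3.44e-11). Trim6, a ubiquitin ligase of the TRIM family with 5 sites, fell from 15.5 to 1.67 CPM (log2 difference -3.21 ± 0.133 SE, adjusted p = 1.34e-13). Fign, a microtubule-severing enzyme with 4 sites, and its relative Fignl2, the methyltransferase-like Mettl6 and the orphan nuclear receptor Nr6a1 with 3 each also fell. Their log2 differences were -1.13, -3.21, -0.75 and -3.62, with adjusted p-values of 1.86e-08, 1.38e-12, 9.61e-09 and 2.12e-11.

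Lin28a (ENSMUSG00000050966, chr4:134003330-134018841), which encodes the LIN28 form that recruits a uridylating enzyme to let-7 precursors, had the steepest early difference. Its E9.5 libraries stood at 111, 119 and 191 CPM and its E10.5 libraries at 15.1, 13.8, 21.4 and 19.7 CPM. At E12.5 they stood at 1.73, 2.60, 1.82 and 1.82 CPM. The lowest E9.5 library was thus above all E10.5 libraries, and no E12.5 library reached the E10.5 range. The E14.5 libraries held 1.19, 1.03 and 0.592 CPM and the E16.5 libraries 0.0961, 0.298, 0.617 and 0.814 CPM, so these stages overlapped. The lowest of the E16.5 libraries held 3 counts, at the floor, and the highest 25. Mean levels were 140.1 ± 44.1 CPM (SD, n = 3), 17.5 ± 3.63 (n = 4), 1.99 ± 0.406 (n = 4), 0.935 ± 0.308 (n = 3) and 0.456 ± 0.321 CPM (n = 4). The E10.5 mean was 8.02-fold below that of E9.5, and the E12.5 mean was 1.42% of it. The fitted log2 differences were -3.00 ± 0.259 (SE) from E9.5 to E10.5 and -3.13 ± 0.281 from E10.5 to E12.5, and the E16.5 mean was 307-fold below that of E9.5.

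The first-day difference of Lin28a depended in size on the libraries compared. Between the libraries low in macrophage-type transcripts, the log2 ratio of E10.5 to E9.5 was -3.43, and between the others it was -2.43, a comparison that rests on 1 E9.5 library. E9.5 replicate 3, the highest for Lin28a, was also highest for the summed second heart field markers (5 genes, among them Isl1 and Fgf10), at 37.7 CPM against 23.4 and 27.3. Over the stages this marker sum went from 23.4 to 37.7 CPM at E9.5 to 11 to 14.7 CPM at E10.5 and 2.32 to 3.64 CPM at E16.5, with 4 of the 5 markers lower at E10.5 (adjusted p under 0.05) and none at 0 in all libraries of a stage. Foregut and pharyngeal endoderm markers, 7 genes, summed to 1.26 to 9.96 CPM at E9.5 and 1.19 to 2.45 CPM at E10.5. Of the E9.5 libraries, replicate 3 was the lowest for this sum and replicate 2 the highest. E9.5 replicate 3 was also highest of its stage for cardiomyocyte markers (23300 CPM against 20700 and 21300) and endothelial markers (855 CPM against 717 and 811). It was lowest for primitive erythroid, epicardial and neural crest and neuronal markers. The part of these cell populations in the Lin28a levels was not tested. A processed transcript on the opposite strand, Gm13061, overlaps 5.86% of the Lin28a exons.

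Lin28b (ENSMUSG00000063804, chr10:45376620-45486395), the paralogue that holds back let-7 primary transcripts, had a lower CPM at E9.5 and kept more of it. Its libraries stood at 37.8, 39.0 and 42.3 CPM at E9.5, at 29.0, 29.8, 30.8 and 27.9 CPM at E10.5 and at 8.47, 9.06, 8.72 and 8.63 CPM at E12.5. The 4 libraries at E12.5 lay within 0.246 CPM SD of 8.72 CPM. At E14.5 values were 5.59, 5.35 and 4.30 CPM and at E16.5 4.07, 4.55, 3.09 and 2.67 CPM, the last pair of stages overlapping. Unlike Lin28a, Lin28b kept 74.1% of its E9.5 level one day later, 22% by E12.5 and 9.06% by E16.5. Its largest step was from E10.5 to E12.5, with a log2 difference of -1.75 ± 0.117 (SE), 50.6% of the whole difference from E9.5 to E16.5. The E16.5 mean was 11-fold below the E9.5 mean.

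The balance of Lin28a and Lin28b turned over between the first and the later stages. Per kilobase of exon, Lin28a supplied 88.5% ± 2.29 (SD, n = 3) of the LIN28 family's CPM at E9.5, 57% ± 5.14 at E10.5 (n = 4) and 33.9% ± 3.7 at E12.5 (n = 4). The share was 28.9% ± 4.52 at E14.5 (n = 3) and 22.5% ± 16.4 at E16.5 (n = 4), where single libraries ran from 5.09% to 40.9%. The family's total meanwhile went from 39.4 to 7.61, 1.46, 0.794 and 0.511 CPM per kb. At E10.5 which of the pair was higher depended on the length used: by the longest transcript, Lin28a held 47.4% there. The E9.5 order (83.9%) and the E12.5 order (25.8%) were the same with either length.

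**Figure D2:**
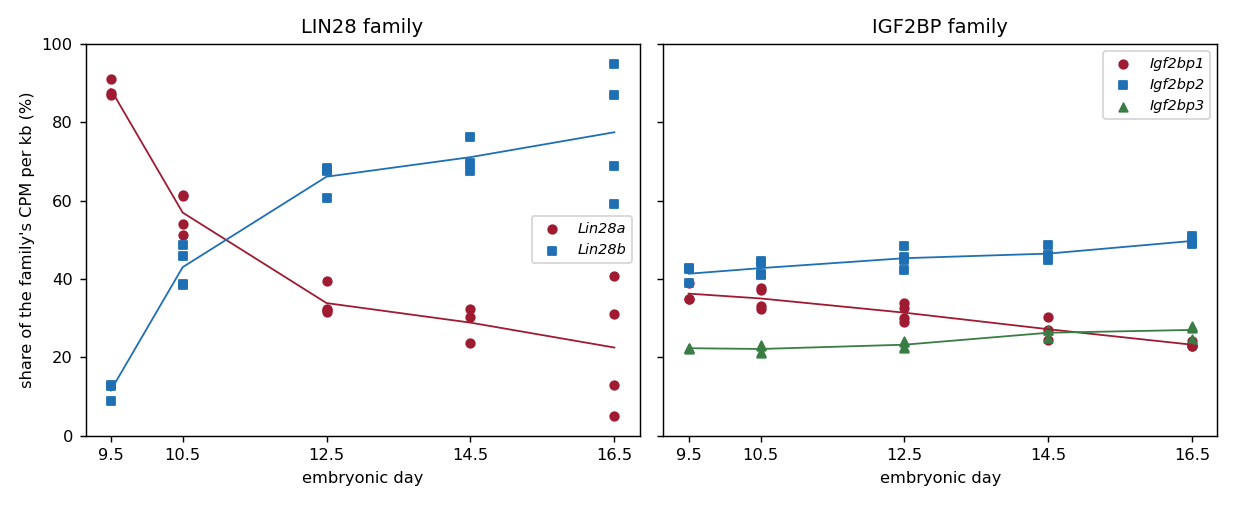
Share of each gene in its family's CPM per kilobase of exon (percent, vertical axis) against embryonic day, one point per library and lines through stage means, for the LIN28 family (left) and the IGF2BP family (right). Lin28a goes from 88.5% to 22.5% of its family while Igf2bp2 goes from 41.4% to 49.7% of its own.

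Trim71 (ENSMUSG00000079259, chr9:114507133-114564369) encodes a ubiquitin ligase and RNA-binding protein of early embryonic cells, the mouse counterpart of the worm let-7 target lin-41. The E9.5 libraries held 52.5, 48.0 and 65.3 CPM, and those at E10.5 27.3, 25.4, 27.6 and 28.5 CPM. At E12.5 the values were 2.82, 4.68, 5.20 and 4.49 CPM, at E14.5 1.02, 1.01 and 0.436 CPM, and at E16.5 0.128, 0.0893, 0.370 and 0.326 CPM. No neighbouring stages overlapped. The gene stood at 49.3% of its E9.5 level by E10.5, then at 7.78% (E12.5), 1.49% (E14.5) and 0.413% (E16.5), with 3 to 12 counts per library left in the last. The difference from E9.5 to E16.5 was 242-fold between means, spread over 4 steps with log2 differences per day of -1.02, -1.33, -1.17 and -0.94. In contrast, the per-day log2 difference of Lin28a went from -3.00 in the first interval to -0.53 in the last.

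Arid3b (ENSMUSG00000004661, chr9:57790353-57836793), an AT-rich interaction domain DNA-binding protein, stood at 133, 183 and 226 CPM at E9.5. All other stages were tight around their means, with 96.3 ± 3.75 CPM (SD, n = 4) at E10.5, 35.5 ± 2.91 (n = 4) at E12.5, 14.7 ± 1.42 (n = 3) at E14.5 and 8.94 ± 0.448 (n = 4) at E16.5. The mean at E9.5 was 180.5 ± 46.6 CPM (n = 3), and its lowest library, replicate 1, is the only one of the 3 not low in macrophage-type transcripts. The E10.5 to E9.5 log2 ratio was -1.09 between the libraries low in those transcripts and -0.46 between the others. The E16.5 mean was 20.2-fold below that of E9.5, with a log2 difference of -4.34 ± 0.133 (SE) over all libraries and -3.89 without the 5 low in macrophage-type transcripts.

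Hmga2 (ENSMUSG00000056758, chr10:120361275-120476469) encodes an architectural chromatin protein of proliferating embryonic cells. It had the highest CPM of the 8 genes at E9.5, with libraries at 389, 384 and 415 CPM. Levels were 305, 299, 290.1 and 327 CPM at E10.5 and 121, 119.8, 112 and 119 CPM at E12.5. They were 45.9, 38.8 and 34.3 CPM at E14.5 and 12.7, 12.1, 12.2 and 15.6 CPM at E16.5. No neighbouring stages overlapped. The per-day log2 difference of Hmga2 grew over the series, from -0.38 in the first interval to -0.69, -0.79 and -0.80, and only 7.63% of its whole log2 difference lay in the first. The stage means kept 77.1%, 29.8%, 10% and 3.31% of the E9.5 level, ending 30.2-fold lower.

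The 3 IGF2BP genes encode RNA-binding proteins that stabilize messenger RNAs and direct their translation, named for binding to Igf2 RNA. Igf2bp1 (ENSMUSG00000013415, chr11:95957163-96005940) stood at 251, 237 and 258 CPM at E9.5 and at 213, 219, 226 and 241 CPM at E10.5. It then went to 105, 132, 119 and 129.7 CPM at E12.5, 75.1, 80.4 and 55.4 CPM at E14.5, and 43.1, 42.2, 40.2 and 38.6 CPM at E16.5. The first stages overlapped, and every later stage lay below the one before it. Igf2bp2 (ENSMUSG00000033581, chr16:22059009-22163299) had stage means of 217 ± 24.1 (SD, n = 3), 210.4 ± 17.2 (n = 4), 134 ± 11.7 (n = 4), 91.2 ± 6.94 (n = 3) and 67.1 ± 2.79 CPM (n = 4). Igf2bp3 (ENSMUSG00000029814, chr6:49085223-49214957) followed the same course from 129 ± 9.47 CPM (n = 3) at E9.5 and 120.1 ± 9.54 (n = 4) at E10.5 to 75.8 ± 8.77 (n = 4), 56.9 ± 5.94 (n = 3) and 40.2 ± 2.77 CPM (n = 4). All 3 genes overlapped between E9.5 and E10.5, where 90.5%, 96.8% and 92.9% of the first mean were left. For Igf2bp2 the fitted log2 difference of that step was -0.05 ± 0.0877 (SE), and it turned to 0.04 without the 5 libraries low in macrophage-type transcripts and to 0.03 without E9.5 replicate 3. Their E16.5 means were 6.06-, 3.24- and 3.22-fold below those of E9.5, the smallest differences among the 8 genes. Malsu1 lies on the opposite strand over 18.7% of the Igf2bp3 exons, and the sources used here do not state whether counting used strand.

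Within the IGF2BP family, the share of Igf2bp1 was lower late and those of the other 2 higher. Its share per kilobase of exon was 36.3% ± 2.27 (SD, n = 3) at E9.5 and 23.2% ± 0.653 (n = 4) at E16.5. Igf2bp2 went from 41.4% ± 2.15 to 49.7% ± 0.861 and Igf2bp3 from 22.4% ± 0.127 to 27% ± 1.51. The first and last stages did not overlap for any of the 3. The family's total was 70.9 CPM per kb at E9.5 and 18.2 at E16.5.

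**Figure D3:**
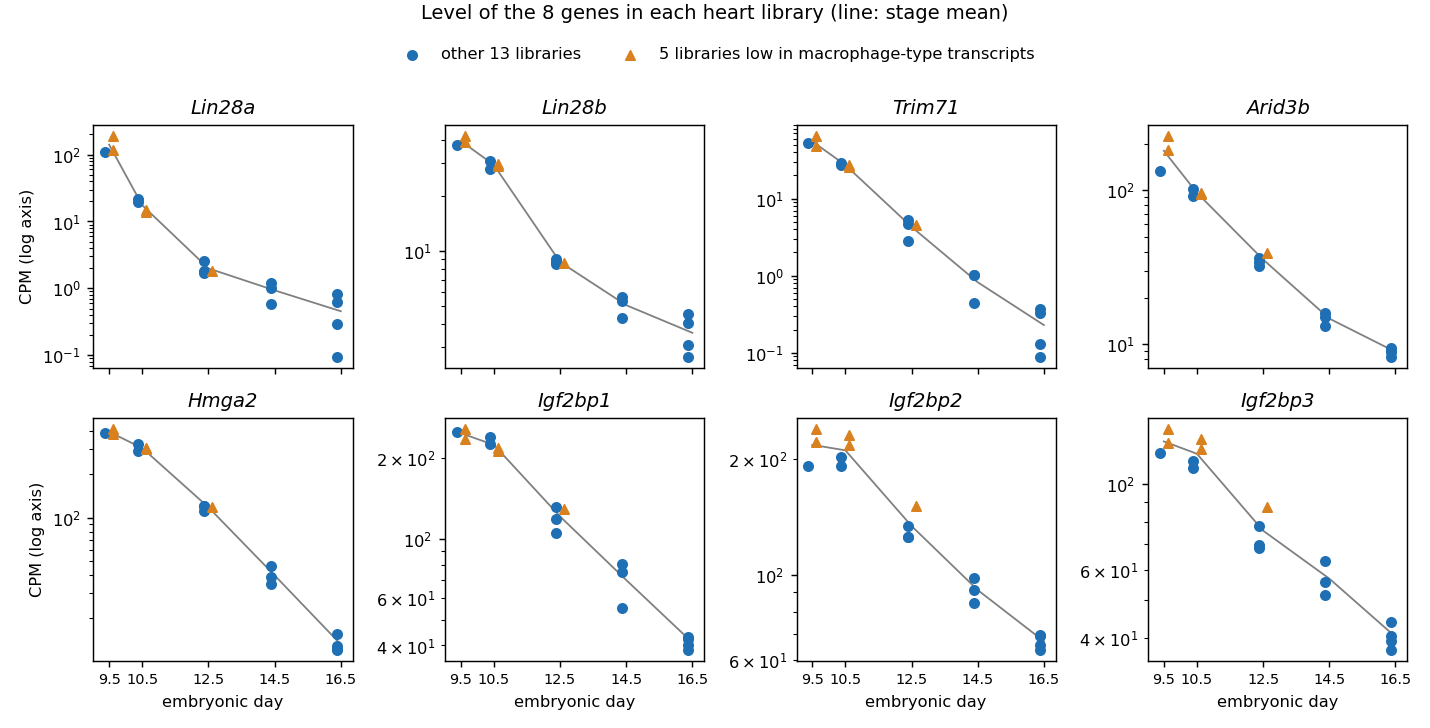
CPM (log axis) of the 8 genes in each of the 18 libraries against embryonic day, with triangles for the 5 libraries low in macrophage-type transcripts, moved slightly aside, and lines through the stage means. Every gene is lower at E16.5 than at E9.5, by 3.22-fold for Igf2bp3 to 307-fold for Lin28a.

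**Figure D4:**
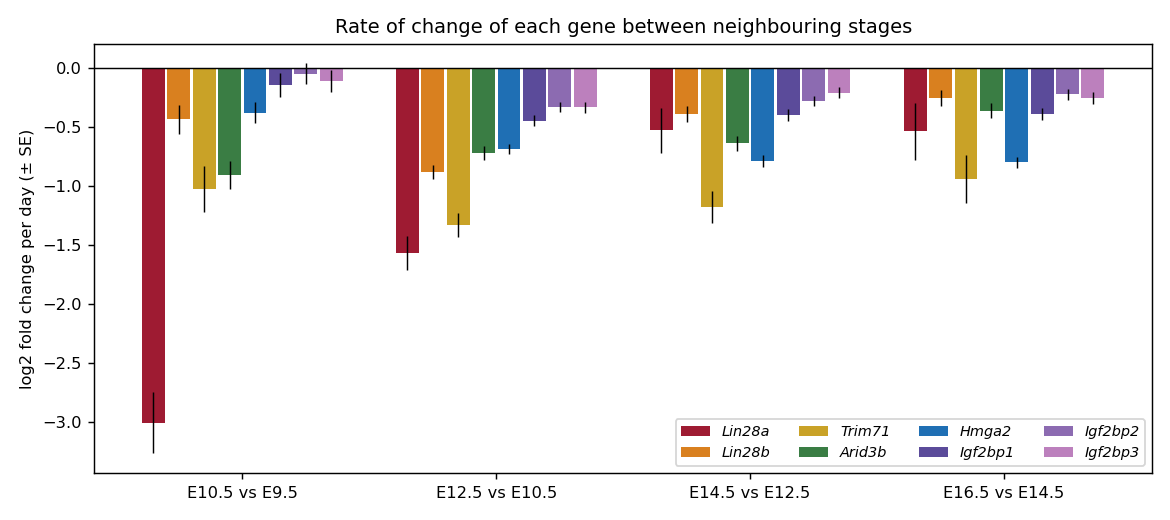
Log2 difference per day of each gene between neighbouring stages, from the fitted differences divided by the days between stages; error bars are SE. Lin28a stands apart in the first interval at -3.00 per day, Trim71 stays between -1.33 and -0.94, and the 3 IGF2BP genes lie near 0 first and between -0.45 and -0.21 later.

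The courses of the 8 genes were spread differently over time. Lin28a had 36.4% of its whole log2 difference in the first day, Arid3b 20.9% and Trim71 12.9%, while Lin28b had 50.6% in the second step. For Hmga2 the share was 7.63%, and for Igf2bp1, Igf2bp3 and Igf2bp2 it was 5.56%, 6.34% and 2.76%. From E10.5 to E12.5 all 8 were lower without overlap, with log2 differences from -3.13 for Lin28a to -0.65 for Igf2bp2. Numbers of genes lower without overlap were 5, 8, 8 and 6 in the 4 successive steps and 8 from E9.5 to E16.5, where 13.4%, 18.7%, 14%, 13.9% and 30.5% of all tested genes were lower without overlap. Median log2 differences of the 8 were -0.40, -1.40, -0.92 and -0.75 in the 4 steps and -3.90 over the whole span, against medians of all genes between -0.02 and 0.01. Because the genes were chosen for these differences, nothing is read from the counts. Ranked by the E16.5 to E9.5 difference among 18885 genes, Lin28a was 4th lowest, Trim71 7th, Hmga2 71st and Arid3b 104th. Lin28b was 192nd, Igf2bp1 362nd, Igf2bp2 844th and Igf2bp3 850th.

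The order of levels per kilobase of exon turned over as well. At E9.5 Hmga2 led with 58.4 CPM per kb, above Lin28a (35.1), Igf2bp2 (29.4), Igf2bp1 (25.7), Arid3b (22.6) and Igf2bp3 (15.9), each of which overlapped its neighbour in that order. Trim71 (5.92) and Lin28b (4.38) were last, without overlap. At E10.5 Hmga2 (45.1) still led and Lin28a (4.37) stood sixth. At E12.5 Igf2bp2 (18.1) and Hmga2 (17.4) overlapped at the top. By E16.5 Igf2bp2 (9.07) led, followed by Igf2bp3 (4.92), Igf2bp1 (4.24), Hmga2 (1.94), Arid3b (1.12) and Lin28b (0.396), without overlap. Lin28a (0.114) and Trim71 (0.0245) came last and overlapped. These are levels per length and depend on the annotated exons. By the longest transcript, Lin28b (7.35) stood above Trim71 (5.92) at E9.5, and Lin28a (39.97) below Igf2bp2 (43.9) and Arid3b (43.27). With that length Lin28a (4.98) was below Lin28b (5.44) at E10.5, and Hmga2 (30.98) above Igf2bp2 (27.01) at E12.5. The E16.5 order of means was the same with either length.

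Some libraries lay at the end of their stage's range for all 8 genes. E9.5 replicate 3 was the highest E9.5 library for 8 of 8 genes, and E14.5 replicate 3 the lowest E14.5 library for 8 of 8, while E14.5 replicate 1 was highest for 7. In E14.5 replicate 3 primitive erythroid markers (Hbb-bh1, Hba-x and others) summed to 883 CPM, against 5610 and 3440 in the other 2. E9.5 replicate 3, the highest for 8 of 8 genes, also had the lowest sum of its stage, 4910 CPM against 7460 and 6260. At E12.5 the lowest sum of these markers was in replicate 4, at 13500 CPM, a library lowest for 0 of the 8 genes. Over all stages these markers ran from 4910 to 7460 CPM at E9.5 and from 13500 to 43300 at E12.5 to 284 to 581 CPM at E16.5. The part of these cells in the levels of the 8 genes was not tested. Without E14.5 replicate 3 the median log2 difference of the 8 genes from E12.5 to E14.5 was -0.76 in place of -0.92.

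The 5 libraries low in macrophage-type transcripts were compared with the others in an edgeR fit with stage, a contrast that did not enter the choice of genes. It rests on E9.5, E10.5 and E12.5, since E14.5 and E16.5 hold no low library and inform only the spread. The only other E9.5 library was replicate 1, and the only low E12.5 library was replicate 4. Igf2bp2 was higher in the 5 low libraries by 0.22 ± 0.052 on the log2 scale (SE, adjusted p = 0.00412). Igf2bp3 was higher by 0.20 ± 0.0612 (adjusted p = 0.0212). Arid3b differed by 0.22 ± 0.0866 with an adjusted p of 0.0753, and the other 5 genes gave adjusted p-values of 0.792 to 0.975. In the same fit 10.1% of all genes were called higher and 11.6% lower in the 5 libraries. Without them the E16.5 to E9.5 log2 difference was -1.51 for Igf2bp2 and -1.58 for Igf2bp3, in place of -1.70 and -1.69.

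Across the 18 libraries the log2 CPM of the 8 genes correlated pairwise with Pearson's r of 0.899 (Lin28a with Igf2bp2) to 0.992 (Igf2bp2 with Igf2bp3), a description dominated by the shared course over stages. Among 11649 protein-coding genes compared, Lin28a was most like Prtg, Cecr2, Soat2, Rnf121 and Pawr, with r from 0.99 to 0.985. Pearson's r does not weigh the size of a change. From E9.5 to E16.5 the mean of Prtg went from 174 to 2.75 CPM, and that of Rnf121 from 37.4 to 22.8 CPM. Lin28b was most like Hsp90aa1, Hsph1, Palm3, Kbtbd8 and Ccnd2, which encode chaperones among others, with r from 0.992 to 0.990. The mean of the 8 was most like Fndc3c1, Epb41l5, Sorl1, Elovl6 and Pop1, with r from 0.997 to 0.993. Such likeness was common: 1197 genes had r over 0.9 with Lin28a, 1595 with Lin28b and 1770 with the mean.

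Genes that process, load or otherwise act on let-7, called the let-7 maturation list, numbered 18. They include Tut4 and Tut7, partners of LIN28, so the counts do not describe let-7 production alone. This list and those that follow were drawn up with earlier results of these data known. Of the 18 genes, 13 fell and 1 rose from E9.5 to E16.5, with a median log2 difference of -0.45. Over all tested genes 32.8% fell, 32.1% rose and 64.9% were called. Dicer1, which cuts the precursor hairpin, fell from 167 ± 34.6 CPM (SD, n = 3) to 77.2 ± 10.6 (n = 4), a log2 difference of -1.11 ± 0.136 (SE, adjusted p = 8.66e-07). Xpo5, the precursor's nuclear exporter, fell by 1.11 ± 0.132 (adjusted p = 5.46e-07), and Drosha, the nuclear processing enzyme, by 0.99 ± 0.109 (adjusted p = 1.27e-07). Over the alternatives run, log2 differences ranged from -1.27 to -0.71 for Dicer1, -1.29 to -0.66 for Xpo5 and -1.13 to -0.65 for Drosha. Hnrnpa1, which binds the primary transcript, fell from 1380 ± 120 to 675 ± 18.9 CPM (adjusted p = 1.01e-10). The 1 riser was Ago4, an Argonaute of low level, from 2.5 ± 0.17 to 6.83 ± 0.672 CPM (log2 difference 1.45 ± 0.138, adjusted p = 1.85e-08). The ends of those that did not pass were Ago3 at -0.39 (adjusted p = 0.0562) and Ago1 at 0.05 (adjusted p = 0.69). Without the 5 libraries low in macrophage-type transcripts the log2 differences were 0.16 for Ago3 and 0.32 for Ago1. With a term for those 5 libraries in the edgeR fit, Ago1 was higher by 0.21 (adjusted p = 0.0473).

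By step, most calls in this list lay between E10.5 and E12.5. From E9.5 to E10.5, 0 of the 18 genes fell and 2 rose, with 18.2% of all genes called, and from E10.5 to E12.5, 10 fell and 1 rose, with 38.0% called. In the last 2 steps 0 and 1 fell and 1 (Ago4, by 0.39, adjusted p = 0.0459) and 0 rose, with 14.8% and 18.9% of all genes called. Without the 5 libraries low in macrophage-type transcripts, 9 fell and 3 rose from E9.5 to E16.5 with a median of -0.31, when 24.6% of all genes in that fit fell and 26.5% rose. Among the partners of LIN28, chosen for naming after their values were seen, the uridylating enzyme Tut4 fell by 0.56 ± 0.11 on the log2 scale (adjusted p = 0.000185), and by 0.27 without those 5 libraries (adjusted p = 0.0756). Its paralogue Tut7 stood at 57.7 ± 11.9 CPM at E9.5 and 56.4 ± 2.14 at E16.5, with a log2 difference of -0.03 ± 0.111 (adjusted p = 0.813), and of 0.36 without those libraries (adjusted p = 0.00552).

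Transcripts that host let-7 genes gave no common direction. Of 7 names listed, 3 matched the files. Huwe1, whose introns hold let-7f-2 and mir-98, fell from 482 ± 191 to 242 ± 29.4 CPM (log2 difference -0.99 ± 0.221 SE, adjusted p = 0.00095), but by 0.12 without the 5 libraries low in macrophage-type transcripts (adjusted p = 0.614). Mir99ahg, the host of let-7c-1, rose from 4.69 ± 2.04 to 7.2 ± 2.11 CPM (log2 difference 0.62 ± 0.266, adjusted p = 0.0496), and by 0.05 without those libraries (adjusted p = 0.917). Wdr82, the host of let-7g, stood at 188 ± 5.93 CPM at E9.5 and 179 ± 6.95 at E16.5 (log2 difference -0.07 ± 0.0636, adjusted p = 0.344). A search by hairpin position, made after the files were seen, added 3110039I08Rik (let-7a-2), which rose by 1.33 ± 0.343 (adjusted p = 0.00337), and by 0.78 without the 5 libraries (adjusted p = 0.222). In 6720427I07Rik, which covers let-7a-1, let-7f-1 and let-7d, the log2 difference was -0.53 ± 0.251 (adjusted p = 0.0711), and in Spaca6 (let-7e) -0.23 ± 0.319 (adjusted p = 0.542; 0.0024 without the 5 libraries). By position 9 hosts were found, of which 7 were in the files and 6 had enough reads to test. Gm49317, a second host of let-7a-2, was listed at 0 in every library and was not tested, and Lncppara (let-7b and let-7c-2) and D630033A02Rik (let-7i) were not analysed here. Without the 5 libraries 0 of these 6 hosts passed the test. Host levels include unspliced and processed RNA and do not measure the mature let-7.

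Other known let-7 targets, 48 genes from general knowledge, were lower more often than higher at E16.5. They were listed with earlier results of these data known, so their counts are a description. From E9.5 to E16.5, 30 fell, 10 rose and 8 did not pass, with a median log2 difference of -0.56, when 32.8% of all genes fell and 32.1% rose. Without the 5 libraries 27 fell and 11 rose, when 24.6% of all genes fell and 26.5% rose. In the 4 steps 10, 25, 23 and 21 fell and 7, 11, 3 and 2 rose, when 7.62%, 18.1%, 8.56% and 8.74% of all genes fell and 10.6%, 20.0%, 6.29% and 10.1% rose. Prtg, a cell-surface immunoglobulin protein also found most like Lin28a, fell from 174 ± 53.2 CPM (SD, n = 3) to 2.75 ± 0.776 (n = 4), a log2 difference of -5.99 ± 0.233 (SE, adjusted p = 1.37e-12). Igdcc3, of the same family, fell from 51.1 ± 4.4 to 0.853 ± 0.0431 CPM (log2 difference -5.90 ± 0.158, adjusted p = 6.94e-16). Has2, which makes hyaluronan of the cardiac jelly, fell from 82.2 ± 14.9 to 3.4 ± 0.607 CPM (adjusted p = 2.32e-12). Sall4, a pluripotency zinc-finger factor, fell from 35 ± 6.96 to 1.5 ± 0.197 CPM (adjusted p = 1.38e-13).

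The targets that rose were led by matrix genes. Col1a2 and Col3a1, fibrillar collagen chains, rose from 57 ± 13 and 125 ± 22 CPM to 1090 ± 123 and 1640 ± 143 CPM, with log2 differences of 4.25 ± 0.177 and 3.72 ± 0.126 (adjusted p = 4.93e-13 and 8.74e-15). Fibroblast markers (Col1a1, Dcn, Postn and 3 others) summed to 112 to 157 CPM at E9.5 and 2250 to 2830 CPM at E16.5, with none at 0, and the part of these cells in the collagen values was not tested. Stard13, a GTPase-activating protein, rose from 5.91 ± 1.7 to 16.7 ± 1.6 CPM (adjusted p = 2.85e-08). Igdcc4 rose from 14.7 ± 2.66 to 38.2 ± 1.76 CPM (log2 difference 1.38 ± 0.118, adjusted p = 3.77e-09), against the direction of its relative Igdcc3.

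**Figure D5:**
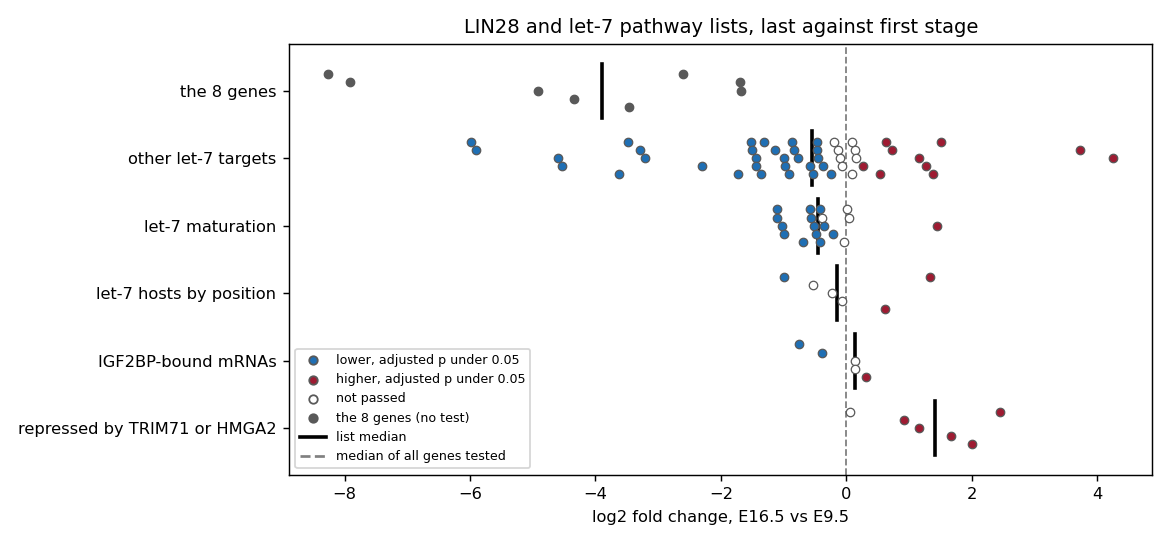
Log2 difference from E9.5 to E16.5 (horizontal axis) of each gene in the LIN28 and let-7 lists, filled where the adjusted p was under 0.05, with list medians as bars and the median of all genes as a dashed line; the 8 genes are shown without a test. The 8 genes have a median of -3.90, other targets -0.56 and the let-7 maturation list -0.45.

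Messenger RNAs known to be bound by IGF2BP proteins were described as 5 genes. From E9.5 to E16.5, 1 rose, 2 fell and 2 did not pass, when 32.1% of all genes rose and 32.8% fell. Igf2 itself stood at 4290 ± 274 CPM at E9.5, 6090 ± 594 at E12.5 and 4740 ± 196 at E16.5, a log2 difference over the span of 0.14 ± 0.0801 (adjusted p = 0.121). Over the alternatives run this difference ranged from 0.0994 to 0.2545. It passed with DESeq2 (adjusted p = 0.0494) and, in edgeR, with the filter at 10 CPM (adjusted p = 0.0173). It also passed with a term for the 5 libraries (adjusted p = 0.0106), and in no other alternative. H19 rose from 7080 ± 351 to 8770 ± 455 CPM (log2 difference 0.31 ± 0.0822, adjusted p = 0.00283), and the difference was 0.30 without the 5 libraries (adjusted p = 0.0516). Cd44, a hyaluronan receptor, fell by 0.76 ± 0.0842 (adjusted p = 1.62e-07) and Actb by 0.38 ± 0.075 (adjusted p = 0.000179). For Myc the log2 difference was 0.14 ± 0.118 (adjusted p = 0.325). Over the same span the IGF2BP means were 3.22- to 6.06-fold lower.

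Genes known to be repressed by TRIM71 or HMGA2 were described as 6 genes, of which 5 rose and 0 fell from E9.5 to E16.5, when 32.1% of all genes rose and 32.8% fell. Cdkn1a, the cyclin-dependent kinase inhibitor p21, rose from 18.6 ± 3.42 to 59.1 ± 6.38 CPM (log2 difference 1.67 ± 0.125, adjusted p = 5.65e-10), and it passed the test as a rise in each of the 4 steps. Rbl2, a pocket protein, rose from 13 ± 1.98 to 51.9 ± 2.98 CPM (adjusted p = 9.82e-12). Cdkn2b, another inhibitor, rose from 0.275 ± 0.0717 to 0.617 ± 0.0553 CPM, a log2 difference of 1.15 (adjusted p = 0.00621), or 0.89 without the 5 libraries (adjusted p = 0.169). Cdkn2a rose from 0.0705 ± 0.122 to 0.417 ± 0.229 CPM, near the floor, a log2 difference of 2.45 (adjusted p = 0.0385), or 0.97 without them (adjusted p = 0.451). Rbl1 stood at 39.3 ± 1.91 CPM at E9.5 and 40.7 ± 3.64 at E16.5 (adjusted p = 0.679). Without the 5 libraries 3 rose and 0 fell, when 26.5% of all genes rose and 24.6% fell.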

How the data were processed

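The authors deposited whole-number read counts per gene, 1 file per library, for 18 embryonic heart libraries. Per the submitters' processing notes, Trimmomatic 0.36, STAR 2.5.2b and featureCounts from Subread 1.5.2 were used with GRCm38 (mm10); the sources used here do not state their settings or strandedness. Genes without a symbol held 0.0238% to 0.0388% of counts. Counts were fitted with edgeR 4.0.16 (R 4.3.3; quasi-likelihood, robust, TMM scaling, filterByExpr, stage as the only term, all 18 libraries), with Benjamini-Hochberg adjustment over 18885 genes and calls at an adjusted p under 0.05; SE is the log2 difference divided by the square root of F. CPM per kb used the union of GENCODE M21 exons. No library repeated another: chi-square over degrees of freedom ran from 6.06 to 79.8 between libraries of a stage. The fit was also run on simulated counts with 50 changed genes per fold size and no split between libraries, unlike these data. Its outcome is not reported here, and nothing is read from it.

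The 8 genes and all lists were chosen with earlier results of these data known. From each list up to 4 rises and 4 falls with the largest E16.5 to E9.5 difference among those that passed, and the ends of those that did not, were named; all hosts that were tested were named. Some genes that this rule selects are not reported here. Likeness used Pearson's r of log2 CPM (prior count 2) for protein-coding genes with at least 5 CPM in their highest stage. The 5 libraries low in macrophage-type transcripts were those under 10 CPM. Alternatives were other scalings, filters, DESeq2 1.42.0, fits of 2 stages, a replicate block, the 5 libraries as a term or left out, and each library left out.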

Additional observations from a re-analysis of the deposited data

Results flagged for a closer look

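Lin28a at E12.5 stood at 2.595 CPM in replicate 2, against 1.728 to 1.822 CPM in the other 3 libraries, a gap that is large for 4 libraries by Dixon's criterion. It was the only one among 24 combinations of gene and stage with 4 libraries, and chance marks about 1 in 20. Replicate 2 held 96 Lin28a counts and the others 63 to 80.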

How the results depend on the processing

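The direction of the 8 genes was the same under every alternative run in every comparison, except that Igf2bp2 from E9.5 to E10.5 (-0.05) turned to 0.04 without the 5 libraries low in macrophage-type transcripts and to 0.03 without E9.5 replicate 3. None of the 288 values with 1 library left out moved by more than the spread between libraries. Leaving out 1 of 3 or 4 libraries can hardly shift a stage mean by more than that spread, so nothing is read from this. With 1 library left out, Arid3b ranged from -1.07 to -0.71 between E9.5 and E10.5. Lin28a ranged from -1.49 to -0.75 between E14.5 and E16.5. Same-numbered libraries of neighbouring stages correlated with r from -0.779 to 0.665. Between E9.5 and E10.5 the sign of r followed the split of the 5 libraries. There E10.5 replicate 3 and E9.5 replicate 1, of different number, reached 0.765. Whether the replicate numbers pair the samples can therefore not be told from these values. With the replicate block 3286, 7060, 2415, 3105 and 11927 genes were called in place of 3446, 7181, 2803, 3562 and 12255. From E9.5 to E10.5, 1215 genes were called without those 5 libraries and 6460 with those 5 alone; with 1 library left out the range was 2260 (without E9.5 replicate 3) to 3839. With 1 library left out, the range was 1771 (without E14.5 replicate 3) to 2585 genes from E12.5 to E14.5, and 2058 (without E14.5 replicate 1) to 3849 from E14.5 to E16.5, with 2225 without E14.5 replicate 2. The median of the 8 genes from E12.5 to E14.5 ranged from -1.05 to -0.76 in the same way, and from E9.5 to E16.5 it was -3.64 without the 5 libraries. Among let-7 host transcripts 2 were called; 1 was called under library totals, no filter, the filter at 10 CPM, only the 2 stages compared or a term for the 5 libraries, and 0 without the 5 libraries. With 1 library left out the host count ranged from 1 to 2. Without the 5 libraries, 8 listed genes changed sign from E9.5 to E16.5; of these, 2 were called with all libraries, Ago2, which turned to 0.0135 (adjusted p = 0.954), and Irs2, to 0.0473 (adjusted p = 0.847). Of the others, Tut7 turned from -0.03 to 0.36 and passed (adjusted p = 0.00552), and Prkra, Ago3, Bach1, Tet3 and Spaca6 passed in neither fit. Scaling by library totals moved the share of higher calls from 42.3% to 62.5% from E12.5 to E14.5 and from 53.6% to 24.4% from E14.5 to E16.5, where the median of all genes shifted from -0.02 to -0.15. The cause of these differences was not tested. At E16.5 depth limits Lin28a and Trim71, with as few as 3 counts in a library.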
